A study of Mus musculus with 2 samples.

Results

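Tslp, Crlf2, Il7 and Il7r are the genes of 2 cytokines and of the receptor chains that bind them, and all 4 of the 33904 genes in the count matrices that carry these symbols were described, whatever their values. Each symbol occurs once. The identifiers are ENSMUSG00000024379 for Tslp, ENSMUSG00000033467 for Crlf2, ENSMUSG00000040329 for Il7 and ENSMUSG00000003882 for Il7r. On GRCm38, with the gene models of GENCODE M21, Crlf2 lies at chr5:109554709-109558993, Il7 at chr3:7569994-7613760 and Il7r at chr15:9505788-9530176, all on the minus strand. That annotation is not the release behind the deposited gene list. The skin was profiled by droplet single-cell RNA-seq, which counts distinct transcript molecules (UMIs) of each gene in each cell. The Ctrl library came from dorsal skin painted with ethanol, the vehicle, and the AD library from dorsal skin painted daily with 4.5 nmol of MC903 (calcipotriol), an analogue of vitamin D that produces a dermatitis like atopic dermatitis. Both came from female C57BL/6J mice 7 weeks old, depilated on the back before treatment and sampled on day 10. There was 1 library per condition and the number of mice in it is not stated, so treatment and library cannot be told apart and no test was made between the conditions.

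TSLP is an epithelial cytokine that is released when a barrier is disturbed and that drives type 2 inflammation in skin. It binds the chain encoded by Crlf2, which signals only when paired with the interleukin 7 receptor alpha chain encoded by Il7r. The same alpha chain pairs with the common gamma chain, encoded by Il2rg, to bind interleukin 7, a stromal and epithelial cytokine that keeps lymphocytes alive, and both receptors signal through JAK kinases and STAT5.

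The filter of the study (200 to 6000 genes per cell, no more than 10% of UMIs mitochondrial) kept 11399 cells in Ctrl and 8179 in AD, with a median of 7813 and 6330 UMIs. Levels are in CPM, a gene's UMIs per 1000000 UMIs summed over the same cells, and the range after it is an exact Poisson interval at 95%. A range after a ratio is the exact interval for a ratio of 2 counts. All such intervals cover counting error only, and levels were compared between cells for 1 gene at a time, never between genes. Cells were given a type from marker genes other than the 4, a marker counting in a cell from 50 CPM. Lymphatic cells held Prox1 in 91.6% and 92.9% of cells (Ctrl and AD), mast cells held Cpa3 in 100% of both, and KCs (keratinocytes) held Krt14 in 72.3% and 94.2%. KCs numbered 1960 in Ctrl and 377 in AD, and dFBs (dermal fibroblasts) 4848 and 4514. Cells that met the markers of several types made up 8.97% of Ctrl and 3.08% of AD, and 8.90% and 15.6% were not assigned. The libraries shared 35 cell barcodes.

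In the kept cells Tslp had 591 UMIs in 489 cells of Ctrl and 1684 UMIs in 452 cells of AD, or 5.62 CPM and 27.3 CPM. By share of cells, Tslp was found in 4.29% of Ctrl and 5.53% of AD cells. Crlf2 had 1524 and 1185 UMIs (14.5 and 19.2 CPM), Il7 had 631 and 261 UMIs (6.00 and 4.23 CPM), and Il7r had 2110 and 2367 UMIs (20.1 and 38.4 CPM). The cells that held them were different ones: Tslp lay in KCs, dFBs and macrophages, and Il7 mainly in lymphatic endothelium. Il7r lay mainly in T cells, with less in other lymphoid and in myeloid cells, and Crlf2 in most leukocytes and in endothelium.

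**Figure D1:**
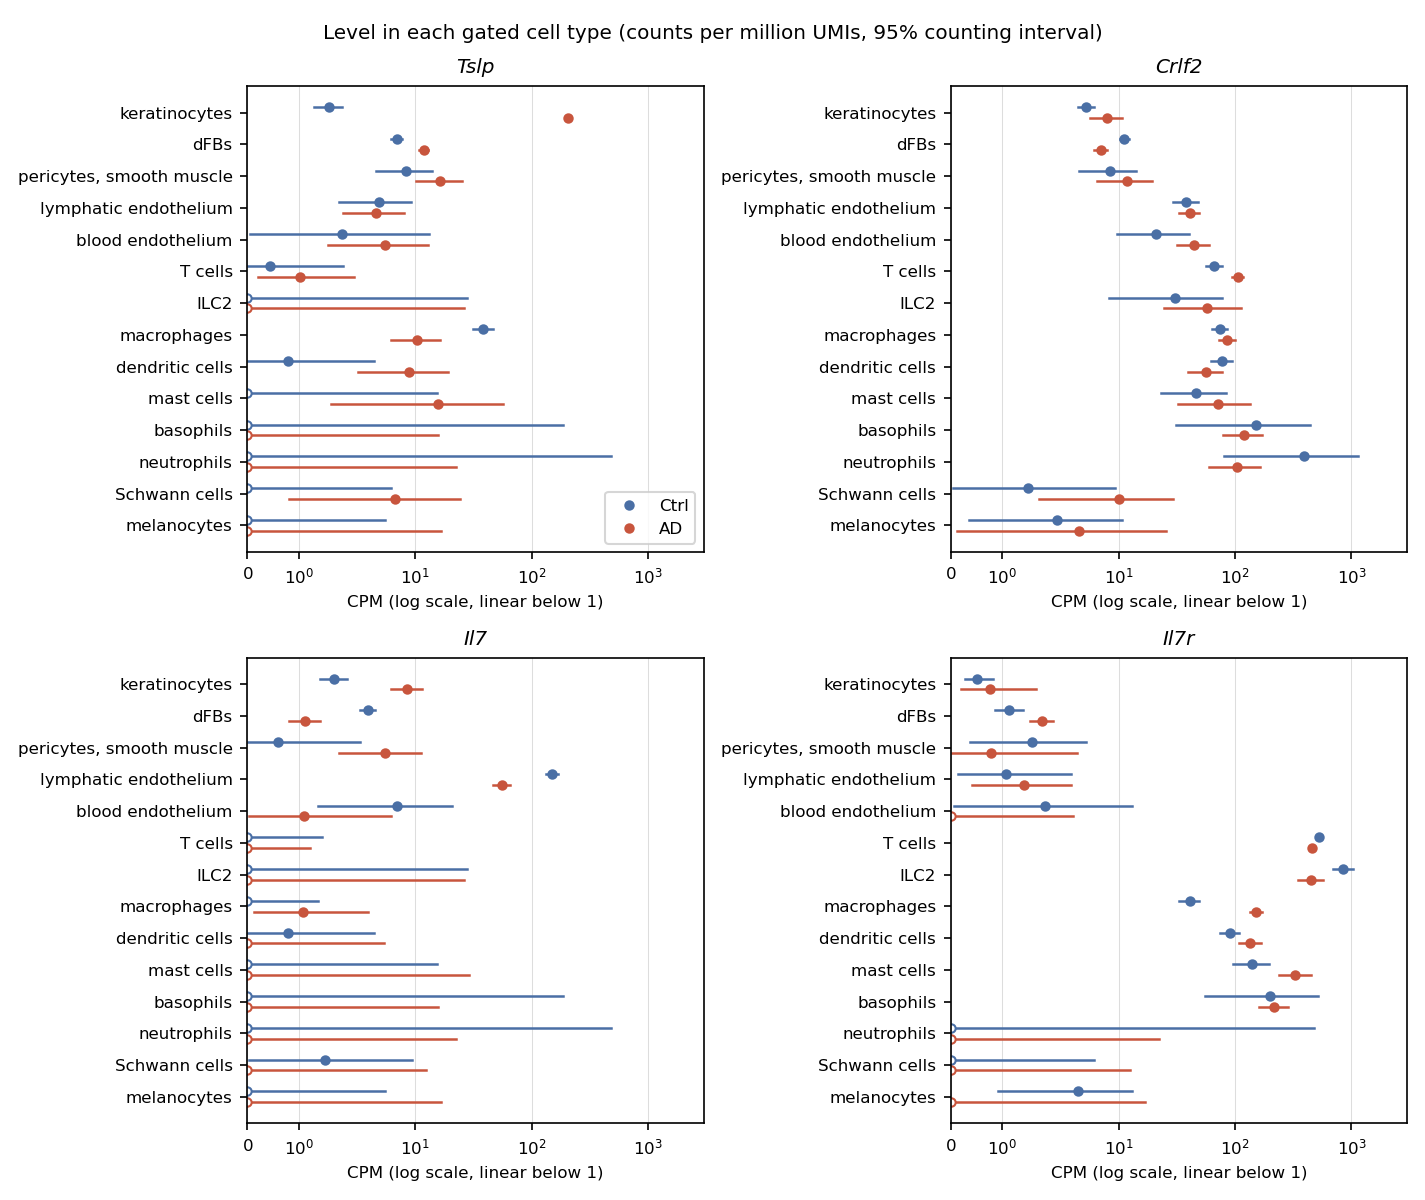
Level of Tslp, Crlf2, Il7 and Il7r in 14 gated cell types, in CPM on an axis that is logarithmic above 1 and linear below it. Points are the Ctrl library (blue) and the AD library (red), lines are 95% Poisson intervals for counting error, and open points are levels with 0 UMIs. Tslp stands at 205 CPM in AD KCs and 1.80 CPM in Ctrl KCs, and Il7 at 150 CPM in Ctrl lymphatic endothelium and 55.5 CPM in AD.

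Tslp was far higher in the KCs of the AD library. Ctrl KCs held 54 Tslp UMIs in 44 of 1960 cells, or 1.80 CPM (1.35 to 2.35). AD KCs held 1086 UMIs in 22 of 377 cells, or 205 CPM (193 to 217). As a log2 ratio, AD over Ctrl, this was 6.83 (6.43 to 7.25). Of the 9213 genes with at least 10 CPM in KCs of either library, 5.95% were at least 2-fold higher in AD, and 1 gene had a higher ratio than Tslp when 1 CPM was added to both levels. KCs held 9.14% of the Tslp UMIs of Ctrl and 64.5% of those of AD. T cells, which are not known as a source of TSLP, were taken as a reference for free RNA. Of these, 1 of 675 Ctrl cells (0.15%, median 3041 UMIs) and 2 of 445 AD cells (0.45%, median 5600 UMIs) had a Tslp UMI. In KCs the shares were 2.24% in Ctrl (median 14393.5 UMIs) and 5.84% in AD (median 10082 UMIs), at greater depth. Over all barcodes thinned to 1000 UMIs per cell, 4 of 2272 Ctrl KCs (0.18%) and 15 of 468 AD KCs (3.21%) held Tslp. At this depth T cells held it in 0 of 678 and 0 of 446, so the Ctrl KC share could not be told from theirs. Schwann cells held 0 Tslp UMIs in 186 Ctrl cells and 2 in 80 AD cells (6.72 CPM), against 1.02 CPM in AD T cells.

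Among the KC stages of Ctrl, the upper hair follicle carried most of the Tslp. A stage was given by the marker list with the highest mean scaled level in the cell, and basal KCs were split by whether Sox9, Lhx2 or Lgr5, genes of the follicle outer root sheath and bulge, reached 50 CPM. Those under 50 CPM are called basal KCs without a follicle gene, though a deep cell among them can hold UMIs of these genes. The upper follicle and infundibulum, the funnel that opens on the skin surface, held 28 UMIs in 20 of 209 cells, or 10.9 CPM (7.27 to 15.8). Basal KCs with a follicle gene held 9 UMIs in 332 cells, or 2.09 CPM (0.96 to 3.97), so that the upper follicle was 5.23-fold higher (2.40 to 12.6). Basal KCs without a follicle gene held 7 UMIs in 100 cells, or 5.71 CPM (2.30 to 11.8), and their ratio to the upper follicle was within counting error, at 1.92 (0.82 to 5.20).

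The inner follicle, the gland and the differentiated epidermis of Ctrl had little Tslp. The level was 1.15 CPM in 258 spinous cells, 0.61 CPM in 280 cells of the outer root sheath and bulge, and 0.40 CPM in 139 sebaceous cells. The 581 cells of the hair matrix, inner root sheath and hair shaft held 1 UMI (0.11 CPM). The 61 granular cells held 0, which allows up to 2.13 CPM. AD gave 2 spinous, 3 granular and 4 matrix cells, too few for a level in these stages. The boundary between stages is soft, since 9.85% of Ctrl KCs and 14.6% of AD KCs scored within 0.1 of the next list.

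In AD, basal KCs without a follicle gene held the most Tslp of the KC stages. These 19 cells held 995 UMIs in 7 cells, or 3464 CPM (3252 to 3686), which is 59.1% of the Tslp UMIs of all kept AD cells. Basal KCs with a follicle gene held 63 UMIs in 5 of 197 cells, or 22.8 CPM (17.5 to 29.1), and the upper follicle held 25 UMIs in 8 of 71 cells, or 26.7 CPM (17.3 to 39.4). Within AD the basal KCs without a follicle gene were thus 152-fold higher (118 to 199) than those with one, while the latter and the upper follicle did not differ beyond counting error (0.85-fold, 0.53 to 1.42). The split is at 50 CPM and not at 0 UMIs, so a few Sox9 UMIs set the gate of a cell. In the gate without a follicle gene, the cells with 435 and 48 Tslp UMIs had 1 Sox9 UMI each. Those with 245, 198 and 63 Tslp UMIs had 0. In the other gate, the cell with 52 Tslp UMIs had 2. The 53 kept cells of the outer root sheath and bulge held 0 Tslp UMIs, which allows up to 6.15 CPM, and 28 sebaceous cells held 1.

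The same 3 gates were compared with their Ctrl cells, and 2 of the ratios fell within counting error without 1 AD cell. The log2 ratio was 9.25 (8.20 to 10.56) in basal KCs without a follicle gene, 3.44 (2.43 to 4.64) in those with one, where 4.16% of genes were at least 2-fold higher, and 1.29 (0.45 to 2.12) in the upper follicle, where 11.4% were. The first value rests on 7 cells with Tslp in each library, and it was 8.68 (7.62 to 10.00) without the richest AD cell. In basal KCs with a follicle gene 1 cell held 52 of the 63 UMIs, and without it the AD level was 4.01 CPM and the log2 ratio 0.94 (-0.47 to 2.39). In the upper follicle 1 cell held 9 of the 25 UMIs, and without it the values were 17.4 CPM and 0.67 (-0.31 to 1.61). These 2 ratios are thus within counting error once the richest AD cell is left out, with all Ctrl cells kept in.

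**Figure D2:**
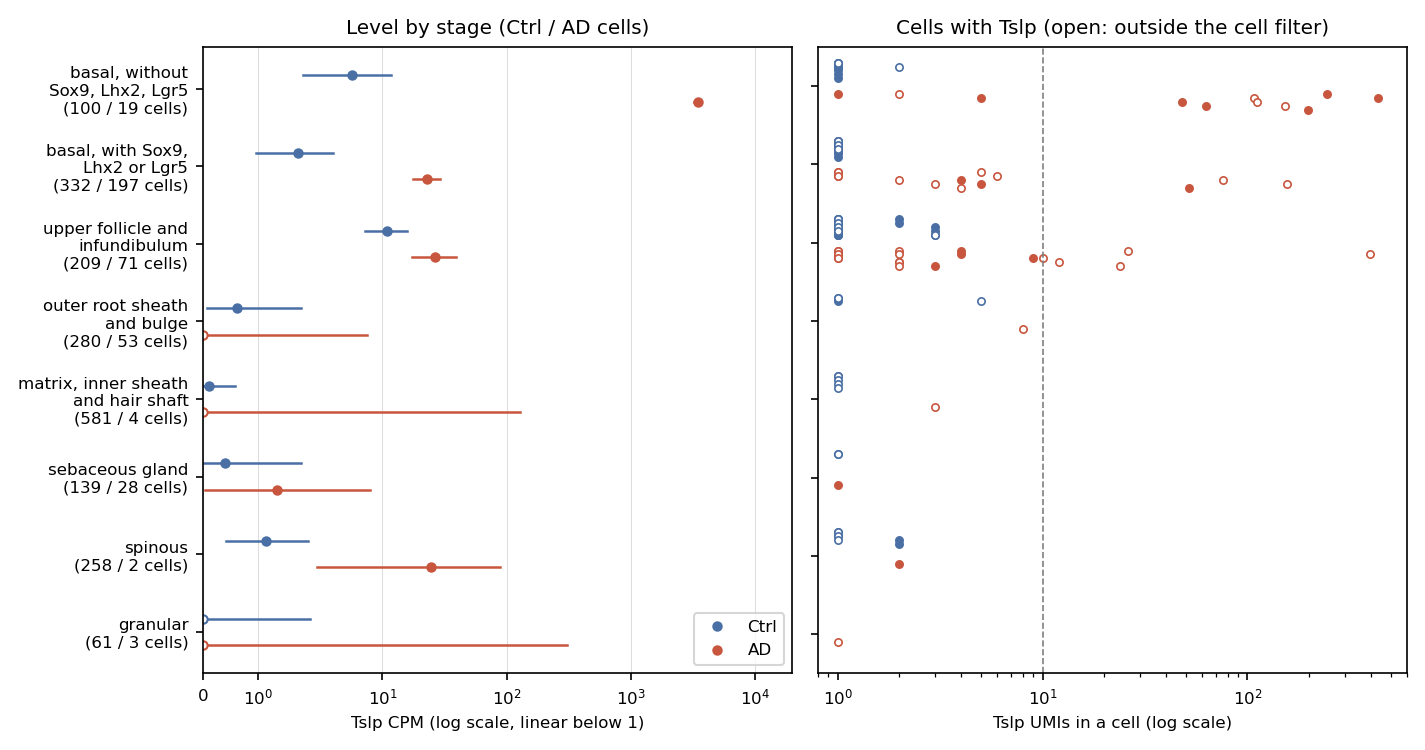
Tslp by KC stage, with the number of kept cells in Ctrl and AD after each name. Left, CPM with 95% Poisson intervals, on an axis that is logarithmic above 1. Right, Tslp UMIs of each KC that holds any, on a log axis, open where the cell fell outside the filter and with a dashed line at 10 UMIs. No Ctrl KC passes 5 UMIs, whereas 16 AD KCs hold 10 to 435.

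The Tslp of AD KCs lay in few cells. Of the 377 kept AD KCs, 22 had a Tslp UMI, and the 3 richest cells, with 435, 245 and 198 UMIs, held 80.8% of the Tslp of kept AD KCs. Without them the log2 ratio in KCs was 4.47 and the KC share of AD Tslp 25.8%. The 3 richest Ctrl KCs held 9 UMIs together. A cell with at least 10 Tslp UMIs is called Tslp-rich below, a line drawn after the counts were seen.

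Most Tslp-rich cells fell outside the filter of 6000 genes. Over all barcodes, AD held 2927 Tslp UMIs and Ctrl 634, and the barcodes outside the filter held 1243 of the AD UMIs and 43 of the Ctrl UMIs, 1227 and 36 of them in barcodes with over 6000 genes. AD had 19 Tslp-rich barcodes, with 2289 UMIs or 78.2% of its Tslp, and 8 of them were kept. Of these 19, 16 were KCs, 2 met the markers of several types and 1 was a dFB with 12 UMIs. The KCs among them were 8 basal cells without a follicle gene, 3 basal cells with one and 5 cells of the upper follicle. Ctrl had 1 such barcode, unassigned, with 11 UMIs.

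With all barcodes, the 3 gates kept their order of basal KCs without a follicle gene above the others, but the upper follicle came closer. The level in AD was 2166 CPM (2052 to 2284) in 28 basal KCs without a follicle gene, 142 CPM (130 to 155) in 109 cells of the upper follicle and 62.0 CPM (55.4 to 69.2) in 243 basal KCs with a follicle gene. Basal KCs without a follicle gene held 1368 of the 2927 AD UMIs, or 46.7%. A single upper follicle cell of 73370 UMIs held 396 of the 504 Tslp UMIs of its gate. Tslp-rich AD barcodes were deep, with a median of 54659 UMIs against 14050 in the other AD KCs, and the part of depth in their Tslp counts was not tested. They held 0 Ptprc UMIs, the pan-leukocyte gene, and at most 9 Col1a1 UMIs, a collagen gene of dFBs. The doublet caller scrublet marked 395 of 11399 cells in Ctrl and 0 of 8179 in AD. A count of 0 among so many cells was not taken as absence of doublets, and none were removed.

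Tslp-rich KCs were high in the basal keratin Krt14 and mixed in the other stage markers. Against the other AD KCs, 3 of 8 basal markers were higher, 3 of 8 spinous, 0 of 9 granular, 2 of 8 upper follicle, 3 of 10 bulge and 0 of 9 sebaceous ones. Their Krt14 was at 5742 CPM, against 3936 CPM in the 484 other AD KCs. Krt10, a keratin of the spinous layer, was at 19.2 CPM against 244 CPM, and granular Flg, which encodes filaggrin, had 0 UMIs. The bulge genes Lhx2 and Lgr5 had 1 and 0 UMIs, where the other AD KCs had 48.9 and 35.0 CPM. Sox9 of the same list was in 12 of the 16 cells, at 129 CPM against 472 CPM, and Barx2 and Tnc were higher, at 171 against 143 CPM and 12.8 against 6.16 CPM. Krt15, a keratin of resting basal and bulge cells, was at 24.7 CPM against 500 CPM, Cst6 of the upper follicle at 77.0 CPM against 1298 CPM and Krt79 of the same place at 260 CPM against 919 CPM. The marker lists that set the stage hold most of these genes, so they describe the cells and test nothing.

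The same cells were high in Krt6a, a keratin of the inner follicle and of wounded epidermis that also stands on a stage list, and in the alarmin Il1a. Krt6a was at 1502 CPM in Tslp-rich KCs, at 761 CPM in other AD KCs and at 30.6 CPM in Ctrl KCs. Il1a, whose product is released by damaged epithelium, was at 54.1 CPM, 3.96 CPM and 0.99 CPM. Il33, a further alarmin of epithelium, was alike in Tslp-rich and other AD KCs within counting error, at 15.6 CPM and 14.3 CPM with a log2 ratio of 0.13 (-0.69 to 0.85). Il25 had 0 UMIs in KCs of both libraries. Of the other 3 genes described here, the Tslp-rich KCs held 27 Crlf2 UMIs (24.7 CPM against 8.83 CPM in other AD KCs), 13 Il7 UMIs (11.9 CPM against 8.92 CPM) and 0 Il7r UMIs.

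Tslp lay in KCs with Cyp24a1, which encodes the enzyme that inactivates vitamin D and is induced by it. All 16 Tslp-rich KCs had Cyp24a1 UMIs, at 4584 CPM against 1082 CPM in the other AD KCs and 0.48 CPM in Ctrl KCs. Among all AD KCs, 131 had at least 1000 CPM of Cyp24a1, and they held 2147 Tslp UMIs in 33 cells (25.2%). A further 183 KCs had less Cyp24a1, at like depth (median 23148 against 23543 UMIs), and held 44 Tslp UMIs in 13 cells (7.10%). The 186 KCs without a Cyp24a1 UMI, with a median of 6999.5 UMIs, held 12 Tslp UMIs in 4 cells (2.15%). High Cyp24a1 was more widespread than Tslp: 15 of the 131 cells were Tslp-rich and 98 had no Tslp UMI. Vdr, the vitamin D receptor, was lower in Tslp-rich KCs, at 55.9 CPM against 157 CPM.

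Outside the epidermis, dFBs held the larger part of the Ctrl Tslp. They held 318 UMIs in Ctrl, 53.8% of all Tslp UMIs, at 6.89 CPM, and 422 UMIs in AD, 25.1% of all, at 11.8 CPM. The log2 ratio was 0.78 (0.56 to 0.99), below 2-fold, and 7.12% of genes were at least 2-fold higher in dFBs. The subsets differed. Dpp4 interstitial dFBs, the adventitial cells, led in Ctrl with 11.3 CPM and had 14.5 CPM in AD, a difference within counting error (log2 ratio 0.36, -0.02 to 0.73). Follicle mesenchyme, which includes dermal papilla and sheath, had 3 UMIs in 674 Ctrl cells (0.49 CPM) and 25 UMIs in 495 AD cells (7.76 CPM).

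Areg-like dFBs had 5.70 CPM in Ctrl and 15.7 CPM in AD, Ccl19 dFBs 3.54 and 11.4 CPM, and papillary and peri-follicular dFBs 2.91 and 6.30 CPM. All 5 subsets thus had more Tslp in AD, 4 of them beyond counting error. Schwann cells of AD were at 6.72 CPM from 2 UMIs, and the part of free RNA in the subset levels was not tested. By cluster, 132 of the 318 Ctrl UMIs lay in 557 dFBs of a cluster that held 609 Ctrl and 0 AD cells in all, at 20.5 CPM. In AD, 117 of the 422 UMIs lay in 621 dFBs of a cluster that held 671 AD and 2 Ctrl cells in all, at 21.0 CPM. Pericytes and smooth muscle were at 8.35 CPM and 16.3 CPM, for a log2 ratio of 0.97 (-0.07 to 2.06) where 6.14% of genes were at least 2-fold higher.

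Macrophages of Ctrl skin had the highest Tslp level of any type with at least 50 cells in that library, and the level was lower in AD. Ctrl macrophages held 97 UMIs in 81 of 520 cells (15.6%), or 38.3 CPM (31.1 to 46.7). AD macrophages held 19 UMIs in 14 of 216 cells (6.48%), or 10.3 CPM (6.22 to 16.1). The log2 ratio was -1.89 (-2.68 to -1.17), and 8.67% of genes in macrophages were at least 2-fold lower. Within Ctrl, macrophages were 5.56-fold (4.38 to 7.00) above dFBs and 21.3-fold (15.1 to 30.2) above KCs. At 1000 UMIs per cell the shares of macrophages with Tslp were 3.23% and 0.99%.

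The Ctrl macrophages with Tslp were those rich in the complement gene C1qa. The level was 80.2 CPM in macrophages without the MHC class II gene H2-Aa and 31.1 CPM in those with it, and in AD 21.4 CPM and 4.22 CPM. A cluster with high C1qa (3429 CPM) held 96 of the 97 UMIs in 375 macrophages, and a cluster with low C1qa (72.6 CPM) held 1 in 143 macrophages. Markers of the other Tslp-bearing types were read in the same cells. The summed KC markers were at 264 CPM in the Ctrl macrophages with Tslp and 266 CPM in those without, and the summed dFB markers at 807 CPM and 2570 CPM. The medians over cells were 207 and 222 CPM for KC markers, and 602 and 737 CPM for dFB markers. Single markers went both ways, with Krt10 at 75.6 and 66.4 CPM and Krt5 at 7.08 and 15.2 CPM. Their part in the Ctrl level was not tested. In AD, the 14 macrophages with Tslp had more of both, 55.5 against 39.0 CPM of KC markers and 763 against 385 CPM of dFB markers, and their part in the AD level was not tested. Most of these cells, 66 of 81, had 1 Tslp UMI. Dendritic cells had 1 Tslp UMI in 159 Ctrl cells and 6 in 50 AD cells.

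Il7 was chiefly a transcript of lymphatic endothelium, and there it was lower in AD. Ctrl lymphatic cells held 278 UMIs in 141 of 320 cells (44.1%), or 150 CPM (133 to 169). AD lymphatic cells held 145 UMIs in 87 of 322 cells (27.0%), or 55.5 CPM (46.8 to 65.3). The log2 ratio was -1.43 (-1.73 to -1.14), and 8.52% of genes in these cells were at least 2-fold lower in AD. AD lymphatic cells were the deeper ones (medians of 4288.5 and 6192.5 UMIs), and at 1000 UMIs per cell the shares were 13.8% and 6.54%. With cells limited to those with Prox1, the transcription factor that defines lymphatic identity, the levels were 150 CPM in 293 cells and 56.9 CPM in 299 cells. Lymphatic endothelium held 44.1% of the Il7 UMIs of Ctrl and 55.6% of those of AD. T cells had 0 Il7 UMIs in both libraries.

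The other sources of Il7 differed in both directions. In dFBs the level was 3.90 CPM (3.35 to 4.51) in Ctrl, from 180 UMIs, and 1.12 CPM (0.80 to 1.52) in AD, from 40 UMIs. The log2 ratio was -1.80 (-2.33 to -1.30), and each of the 5 dFB subsets was lower in AD, from 5.31 to 0.27 CPM in Ccl19 dFBs and from 2.70 to 0.18 CPM in Dpp4 interstitial dFBs, which held 2 and 1 UMIs in AD. In KCs Il7 was higher, with 60 UMIs or 2.00 CPM (1.53 to 2.58) in Ctrl and 45 UMIs or 8.48 CPM (6.19 to 11.4) in AD, a log2 ratio of 2.08 (1.49 to 2.67).

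By KC stage the Il7 counts were small. Sebaceous cells were the highest KC stage in Ctrl, with 27 UMIs in 139 cells or 10.8 CPM (7.11 to 15.7), and had 4 UMIs in 28 cells or 5.68 CPM in AD, within counting error (log2 ratio -0.93, -2.90 to 0.60). The upper follicle had 6 UMIs (2.34 CPM) and 10 UMIs (10.7 CPM), and basal KCs with a follicle gene 18 UMIs (4.18 CPM) and 25 UMIs (9.04 CPM). The make-up of the KCs differed as well: the hair matrix gate, with 0.21 CPM of Il7, was 581 of the 1960 Ctrl KCs and 4 of the 377 AD KCs. Its part in the KC ratio was not tested.

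Il7r marked lymphoid cells, and its level in T cells was close in the libraries. T cells held 1227 UMIs or 530 CPM (501 to 560) in Ctrl and 1363 UMIs or 461 CPM (437 to 487) in AD, a log2 ratio of -0.20 (-0.31 to -0.09) where 7.85% of genes were at least 2-fold lower. The share of T cells with a UMI was 55.7% in Ctrl and 75.7% in AD, at medians of 3041 and 5600 UMIs, and at 1000 UMIs per cell it was 34.2% and 36.4%. Schwann cells, which should lack the receptor, held 0 Il7r UMIs in 186 and 80 cells (medians of 2445 and 3019 UMIs). Group 2 innate lymphoid cells (ILC2s), early sources of type 2 cytokines, held 112 UMIs in 42 Ctrl cells or 849 CPM (699 to 1021), and 63 UMIs in 34 AD cells or 448 CPM (344 to 573). Their log2 ratio was -0.92 (-1.39 to -0.46), at a background of 23.9% of genes at least 2-fold lower. The ILC2 gate asked for at least 3 markers and no Cd3 gene from 50 CPM, and allowed some other T cell markers. A T cell whose Cd3 was missed could thus enter it. The ILC2 markers differed too, since Gata3 was in 90.5% and 70.6% of the ILC2s and Calca in 7.14% and 52.9%. The part of these markers in the ratio was not tested.

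The T cell gates did not share 1 pattern. Regulatory T cells, with Foxp3, had 603 CPM of Il7r in Ctrl and 370 CPM in AD, a log2 ratio of -0.70 (-1.02 to -0.39). T cells with Trdc, a gamma-delta receptor gene, had 740 and 573 CPM, where 9.78% of genes were at least 2-fold lower. The other T cells had 391 and 452 CPM, a log2 ratio of 0.21 (0.05 to 0.37), where 3.87% were at least 2-fold higher.

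Gamma-delta T cells fell into a cluster with Il7r and a cluster almost without it, in clusters computed without the 4 genes. The cluster with Il17a (1573 CPM in Ctrl), the cytokine of dermal gamma-delta T cells, had 498 Il7r UMIs in 119 Ctrl cells or 1189 CPM, and 246 UMIs in 62 AD cells or 867 CPM. The cluster with Fcer1g (2173 CPM) and the chemokine Xcl1 (1564 CPM) had 0 Il7r UMIs in 72 Ctrl cells and 1 UMI in 35 AD cells. Both had Trdc, at 1287 and 3753 CPM in Ctrl. Crlf2 did not split in this way, with 43.0 and 76.2 CPM in Ctrl.

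Among myeloid cells, Il7r was higher in AD in macrophages, in mast cells and in dendritic cells as a whole. Macrophages held 103 UMIs or 40.7 CPM (33.2 to 49.3) in Ctrl and 280 UMIs or 152 CPM (135 to 171) in AD, a log2 ratio of 1.90 (1.57 to 2.24), while 6.26% of genes were at least 2-fold higher. Among the genes compared in macrophages, 1.85% had a higher ratio. At 1000 UMIs per cell the shares with Il7r were 2.22% and 10.3%. In the cluster with high C1qa, where the Ctrl Tslp lay, 375 Ctrl macrophages held 11 Il7r UMIs (7.32 CPM) and 181 AD macrophages held 173 (127 CPM). In the cluster with low C1qa the level was 90.2 and 231 CPM.

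Mast cells had 33 Il7r UMIs or 139 CPM (95.4 to 195) in Ctrl and 42 UMIs or 329 CPM (237 to 445) in AD, with 14.9% of genes at least 2-fold higher. Their log2 ratio was 1.25 (0.56 to 1.95). Dendritic cells had 89.9 CPM and 135 CPM, a log2 ratio of 0.58 (0.17 to 0.99), but migratory dendritic cells, which carry antigen to lymph nodes, were lower, at 213 and 142 CPM (log2 ratio -0.58, -1.12 to -0.03), and their number of all dendritic cells was 30 of 159 and 34 of 50. Dendritic cells with Cd207 and Epcam, the markers of Langerhans cells, held 0 Il7r UMIs in 14 Ctrl cells, which allows up to 19.4 CPM, though they held 12 Crlf2 UMIs. Basophils, a TSLP-responsive granulocyte, had 51 Il7r UMIs in 39 AD cells or 215 CPM (160 to 283), against 4 UMIs in 7 Ctrl cells or 201 CPM, a log2 ratio of 0.10 (-1.35 to 2.03). Neutrophils had 0 in 5 Ctrl and 46 AD cells.

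Crlf2 was spread over leukocytes and vessels, with smaller differences between the libraries. T cells held 152 UMIs or 65.6 CPM (55.6 to 76.9) in Ctrl and 311 UMIs or 105 CPM (93.9 to 118) in AD, a log2 ratio of 0.68 (0.40 to 0.97) where 3.29% of genes were at least 2-fold higher. The difference lay in T cells without Foxp3 or Trdc, from 58.7 to 114 CPM (log2 ratio 0.96, 0.58 to 1.36), while Foxp3 T cells had 110 and 123 CPM and Trdc T cells 57.0 and 54.5 CPM, both within counting error. Thinned to 1000 UMIs per cell, 6.43% of Ctrl and 7.95% of AD T cells held Crlf2. Crlf2 differed by less than counting error in macrophages (73.5 and 85.4 CPM, log2 0.22, -0.10 to 0.53) and in dendritic cells (76.5 and 55.7 CPM, log2 -0.46, -1.04 to 0.10).

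Migratory dendritic cells had less Crlf2 than the other dendritic cells without Langerhans markers. In Ctrl the levels were 12.8 CPM (3 UMIs) and 93.4 CPM, and in AD 37.9 CPM (20 UMIs) and 116 CPM (18 UMIs). In AD the non-migratory cells were 3.06-fold higher (1.53 to 6.10). Basophils of AD held 28 Crlf2 UMIs or 118 CPM (78.4 to 170), neutrophils 17 UMIs or 103 CPM, and ILC2s 8 UMIs in 34 cells or 56.9 CPM (24.5 to 112). ILC2s of Ctrl held 4 UMIs in 42 cells.

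Of the stromal cells, endothelium had the highest Crlf2, and its lymphatic and blood vessel cells were not compared by a ratio. Lymphatic endothelium had 37.7 CPM in Ctrl against 40.6 in AD, and 17.8% and 23.6% of cells positive, where 3.48% of genes were at least 2-fold higher. Schwann cells, taken as the background, had 1.67 and 10.1 CPM from 1 and 3 UMIs (0.54% and 3.75% of cells). Blood vessel endothelium had 21.0 CPM from 9 UMIs and 44.2 CPM from 40 UMIs, a log2 ratio of 1.07 (0.01 to 2.30) at a background of 6.82% of genes. In dFBs Crlf2 was lower in AD, 11.2 against 7.02 CPM (log2 ratio -0.67, -0.89 to -0.45), where 1188 of 9148 genes were at least 2-fold lower. Il7r was near 0 in all 3, at 1.08, 2.34 and 1.15 CPM in Ctrl. Both chains were found together in no lymphatic cell of Ctrl and in 1 of 322 in AD.

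At full depth, cells with UMIs of both TSLP receptor chains were mostly T cells, macrophages and dendritic cells. T cells with both numbered 70 of 675 in Ctrl (10.4%) and 141 of 445 in AD (31.7%). The product of the separate shares gives 72.4 and 129 cells, so the chains were found together about as often as their shares imply. Since depth differed between the libraries, the counts were repeated at 1000 UMIs per cell, where T cells with both numbered 11 of 669 in Ctrl (1.64%) and 16 of 440 in AD (3.64%). Over all kept cells they numbered 20 of 11031 (0.18%) and 20 of 7680 (0.26%). T cells without Foxp3 or Trdc with both chains numbered 26 of 368 in Ctrl and 110 of 290 in AD at full depth, with medians of 2956.5 and 6240.5 UMIs. At 1000 UMIs per cell they numbered 6 of 363 (1.65%) and 12 of 285 (4.21%).

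Both chains were in 27 of the 520 macrophages of Ctrl and 32 of the 216 of AD, where the product of the shares gives 15.0 and 21.8. Most had H2-Aa, 26 and 29 of them. Dendritic cells with both were 17 of 159 and 11 of 50, ILC2s 3 of 42 and 6 of 34, mast cells 2 of 126 and 4 of 44, and AD basophils 8 of 39. In KCs 2 of 1960 Ctrl cells held both and 0 of 377 AD cells, which allows a share of up to 0.80% there. The KCs, where most AD Tslp lay, thus held almost no Il7r.

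**Figure D3:**
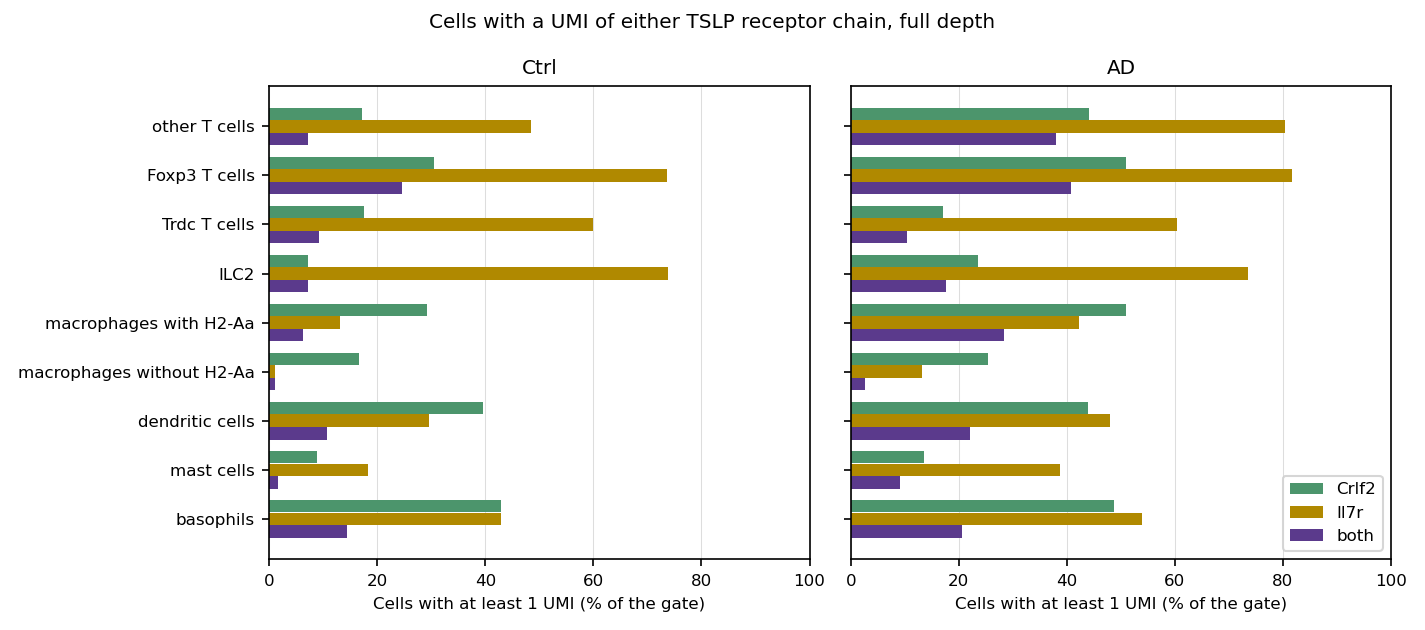
Share of cells with at least 1 UMI of Crlf2, of Il7r and of both, in percent of each gate at full depth, for Ctrl (left) and AD (right). Both chains were found in 10.4% of all Ctrl T cells and 31.7% of all AD T cells at medians of 3041 and 5600 UMIs, so depth differs between the panels.

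Over the 16 cell types with at least 5 cells in each library, a member was counted where it had at least 10 CPM in either library, and a fold of at least 2 was taken with 1 CPM added. Tslp could be counted in 5 types and was at least 2-fold higher in 2 (KCs and mast cells, the latter from 2 UMIs against 0) and lower in 1 (macrophages). Il7 could be counted in 1 and was lower there (lymphatic endothelium). Il7r could be counted in 8 and was higher in 4 (macrophages, mast cells, NK cells and skeletal muscle) and lower in 0, where the NK value rests on 4 and 10 UMIs and the muscle value on 6 in AD. Crlf2 could be counted in 14 and was higher in 3 (blood vessel endothelium, Schwann cells and skeletal muscle) and lower in 1 (neutrophils, from 3 UMIs in Ctrl). Its Schwann value rests on 1 and 3 UMIs and its muscle value on 2 and 4. Both are within counting error (log2 ratios 2.59, -1.04 to 8.31, and 1.30, -1.50 to 4.77). The background shares were 9.72% of genes higher in Schwann cells, 20.9% in NK cells, 21.1% in skeletal muscle and 22.0% lower in neutrophils.

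**Figure D4:**
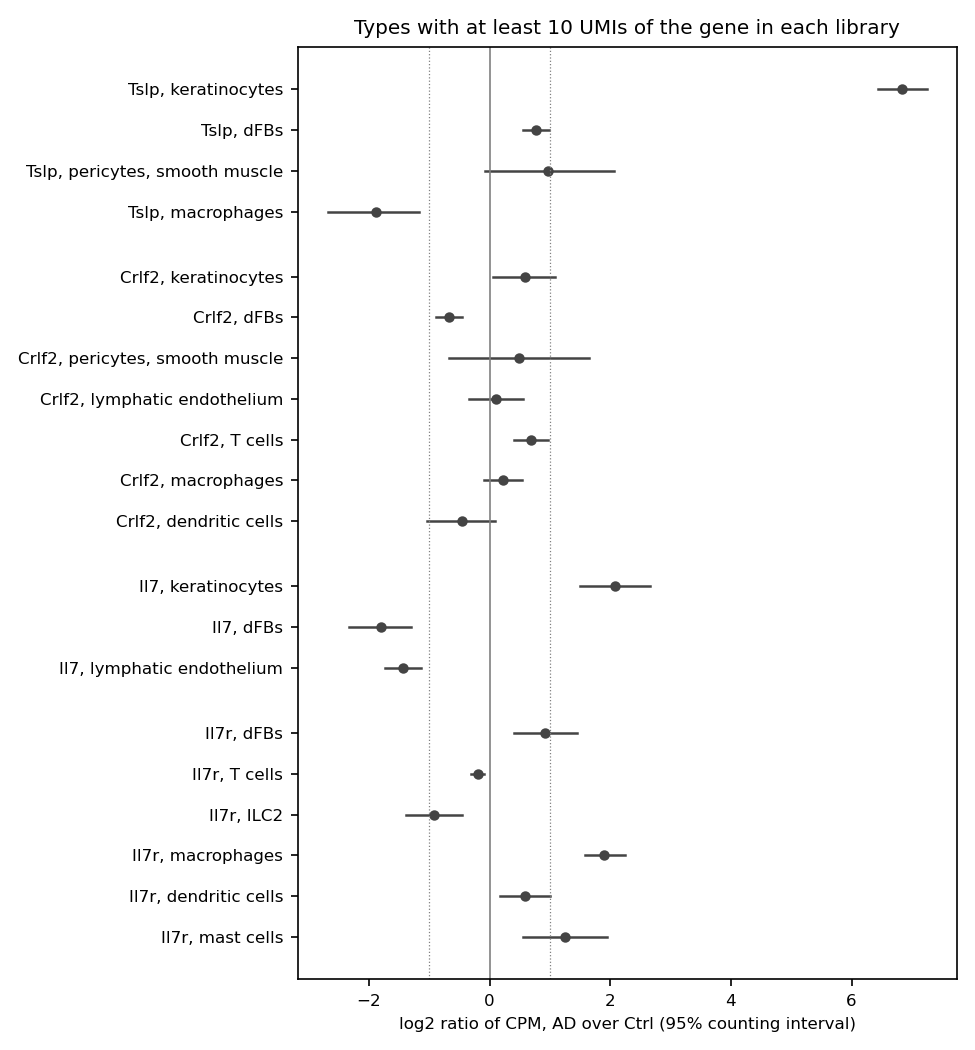
Log2 ratio of CPM, AD over Ctrl, for the cell types with at least 10 UMIs of a gene in each library. Lines are 95% counting intervals, and dotted lines mark 2-fold. Tslp in KCs lies at 6.83, Tslp in macrophages at -1.89, Il7 in lymphatic endothelium at -1.43 and Il7r in macrophages at 1.90.

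Beyond the 4 genes, 31 genes of the pathway were read as a list: the gamma chain, kinases and STATs, target genes, the vitamin D receptor with its partners and its target Cyp24a1, other epithelial alarmins, and related cytokines with their receptors. In KCs 17 could be counted, 5 were at least 2-fold higher in AD and 0 lower, where 5.95% of all genes were higher and 11.6% lower. The median log2 ratio of the list was 0.48 and that of all genes -0.14. The higher ones were Cyp24a1 (0.57 to 1183 CPM), the feedback inhibitors Socs3 (103 to 713 CPM), Socs2 (9.34 to 39.2 CPM) and Socs1 (13.1 to 41.3 CPM), and Il4ra (9.84 to 34.1 CPM), a chain of the interleukin 4 receptor. Jak1 (145 and 157 CPM), Stat5a (12.8 and 18.9 CPM) and Stat5b (15.7 and 12.6 CPM) were within 2-fold.

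In dFBs 6 of 18 were higher (Cish, Socs2, Socs3, Pim1, Cyp24a1 and Il4ra) and Il18 was lower. Of all genes there, 7.12% were higher and 1188 of 9148 were lower. Cish, a STAT5 target that damps cytokine signals, was at 23.8 and 81.4 CPM. In macrophages, 8 of 21 were higher, among them Il1a (8.69 to 379 CPM), Socs3 (222 to 838 CPM) and Vdr (16.6 to 50.6 CPM), and Il18 was lower, where 6.26% of all genes were higher and 8.67% lower. Lymphatic endothelium, where Il7 was lower, had 1 of 16 higher (Il4ra, 30.2 to 69.6 CPM), where 3.48% of all genes were. The list's median log2 ratio was 0.61 in dFBs, 0.45 in macrophages and 0.39 in lymphatic endothelium, against -0.08, -0.02 and -0.07 over all genes.

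In T cells 2 of 21 were higher, Socs3 (73.4 to 274 CPM) and Il4 (3.02 to 60.6 CPM), the type 2 cytokine, and 0 were lower, where 3.29% of all genes were higher and 7.85% lower. The gamma chain Il2rg was 307 and 184 CPM, and the STAT5 targets Cish (255 and 292 CPM), Pim1 (972 and 990 CPM) and Bcl2 (120 and 172 CPM) were within 2-fold. In ILC2s 2 of 23 were higher and 7 lower, where 19.4% and 23.9% of all genes were. Il4 had 0 and 29 UMIs there. In dendritic cells 13 of 21 were higher and 2 lower, where 15.5% and 15.9% of all genes were. In mast cells 5 of 17 were higher and 2 lower, where 14.9% and 26.3% were. In basophils 11 of 18 were higher and 3 lower, where 46.1% and 25.5% were, against 7 Ctrl cells. Socs2 and Il4 belong to the lists that gated migratory dendritic cells and basophils.

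The genes whose levels followed each of the 4 most closely were sought over 18 gates with at least 50 cells in each library, as Pearson's r of log2(CPM + 1) over 36 points. The points share libraries and depth, so r is a description. For Tslp the highest r were low, at 0.72 for Trafd1, 0.69 for Osgin1, 0.68 for Nfkbiz, 0.68 for Cebpb and 0.68 for Fam43a. For Il7 they were 0.83 for Prrt4, 0.79 for Nqo1, 0.79 for Pard6g, 0.76 for Duox2 and 0.75 for Tlcd3b. For Crlf2 they ran from 0.91 (A630001G21Rik) over Ptpn18, Gmfg and Naip2 to 0.89 (Tgfb1), and for Il7r from 0.96 (Rgs1) over Ikzf1, Sla and Atp8b4 to 0.95 (Bin2). The basal KCs without a follicle gene, with 19 AD cells, are not among the 18 gates.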

How the data were processed

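The authors deposited raw UMI counts for each gene in each barcode, made from 10x 3′ libraries. The matrix header names Cell Ranger 5.0.0 and the processing notes name 3.1.0, with Seurat 5.0. The study's cell filter had not been applied and was applied here (200 to 6000 genes, at most 10% mitochondrial UMIs of 13 genes). Each cell was typed by counting markers per list (at least 5 for KCs, 2 or 3 for other types), and KC stages and dFB subsets by the highest mean z-score of a list. Leiden clusters (scanpy 1.11.5, leidenalg 0.10.2, 2000 variable genes without the 4 members, 30 components, 20 neighbours, resolution 2) served as an alternative. CPM are from summed UMIs. Intervals are exact Poisson or Clopper-Pearson at 95% and cover counting error only, and a count of 0 is given the limit of 3 counts. Thinning drew 1000 UMIs per cell (seed 1). With 1 library per condition there is no test. The ratios were tested on simulated data. The genes named are the 4 members, the pathway list and the 5 closest genes to each member, with list markers and the genes that describe clusters added after values were seen. The members and lists were chosen with earlier results of these data known. Python 3.11.15, numpy 2.4.6, scipy 1.17.1, pandas 2.3.3 and matplotlib 3.10.9 were used.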

Additional observations from a re-analysis of the deposited data

Results flagged for a closer look

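Ratios of 1 gene in opposite directions in 2 cell types drew attention in 3 pairs, none of which was tested, since each condition has 1 library. Tslp had a log2 ratio of AD over Ctrl of 6.83 in KCs and -1.89 in macrophages. Il7 had 2.08 in KCs and -1.43 in lymphatic endothelium. Il7r had 1.90 in macrophages and -0.92 in ILC2s. In data outside the main measurement, AD barcodes beyond the cell filter held 1243 Tslp UMIs, against 43 in Ctrl.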

How the results depend on the processing

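Each of 13 values was recomputed under up to 9 alternatives, 104 in all, of which 88 left it within its counting interval, 14 moved it beyond and 2 reversed it. For Tslp in KCs, the log2 ratio was 5.17 as the mean of each cell's CPM, 5.56 with cells thinned to 1000 UMIs and 4.47 without the 3 richest AD KCs. The KC share of AD Tslp was 75.3% with all barcodes, 67.7% with Leiden clusters, 31.5% thinned and 25.8% without those 3 cells. Il7 in KCs had 1.15 as a mean over cells and 0.67 thinned, the latter from 2 AD UMIs. Crlf2 reversed in macrophages when thinned (-0.033) and in dendritic cells with Leiden clusters (1.83), where the class held only migratory cells and 3 Ctrl UMIs. Il7 in dFBs (-2.08 to -1.75) and Il7r in T cells (-0.26 to -0.15) stayed within their intervals under 8 alternatives each. Among values added after seeing the data, Il7 in lymphatic endothelium was -1.79 as a mean over cells and -1.04 thinned, Il7r in macrophages 4.33 with Leiden clusters and 2.45 thinned, and Crlf2 in T cells 0.28 thinned. No Leiden cluster was classed as ILC2s, so that alternative gave no value. Leaving out the richest AD cell of a KC stage, also chosen after seeing the data, brought the Tslp ratio to 0.94 in basal KCs with a follicle gene and 0.67 in the upper follicle. No paired analysis was possible because each group has 1 library. Where the cause is not named, it was not tested.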
